A study of Papio with 24 samples.

Results

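The comparison described here asks whether restriction of the mother's diet altered the difference between omental and subcutaneous abdominal fat progenitors of the baboon fetus. For each fetus, the log2 normalised intensity of the abdominal array was subtracted from that of the omental array, and these depot differences were compared between 4 restricted and 4 control fetuses. The 16 omental and abdominal arrays entered it, of 24 arrays in all, and the 8 femoral arrays served only as side values. A diet by depot interaction is the mean depot difference of restricted fetuses minus that of control fetuses, so a positive value means that omental cells stood relatively higher after restriction.

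All cells were adipose-derived stem cells from baboon fetuses taken on day 165 of a gestation of 184 days. Control mothers ate freely, and the mothers of restricted fetuses received a diet cut by 30% for the whole of pregnancy. The control fetuses were control_9017 (male), control_9087, control_8011 and control_8009 (females), and the restricted fetuses were restricted_9085 (male), restricted_2820, restricted_9075 and restricted_9073 (females). In every group the cells had been released with collagenase, expanded with fetal bovine serum, stored frozen and regrown to confluence after thawing. Each array read the pooled RNA of 3 wells from 1 fetus and 1 depot, so a p-value measures the spread between fetuses, while the spread between wells was not recorded. The arrays describe passaged cells rather than fat tissue, and a smaller share of a cell type cannot be told apart from less RNA per cell. Baboon RNA was read with human probes, so levels are compared for the same probe only.

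Fat depots differ in their embryonic origin. Progenitors keep part of this origin in culture, as a set of transcription factors that mark position along the body, such as the HOX and Iroquois genes, and that separate visceral mesoderm from the mesoderm of the body wall. Omental fat lies inside the abdominal cavity under a mesothelium and expresses factors of the gut mesenchyme, whereas subcutaneous abdominal fat expresses factors of the trunk and limb mesenchyme. Undernutrition of the mother is studied as a cause of later differences in fat storage in the offspring.

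The cells carried several progenitor markers. PDGFRA, PDGFRB, CD44, ITGB1 and NT5E, which are used to define mesenchymal progenitors, were detected on 16 of 16 arrays at a detection p under 0.05. ENG was detected on 3 arrays and THY1 on none, so these defining markers were absent on most or all arrays as the human probes read them. The leukocyte marker PTPRC was detected on 0 arrays and the endothelial marker PECAM1 on 11, at log2 levels of 4.56 to 5.43 that lay near background. NT5E, although detected on every array, lay little higher, at 4.9 to 5.55. Over the 24 arrays, 13102 to 14994 of 48803 probes were detected, mean signals ran from 148 to 211, and 16933 probes passed the filter on dim probes (detection p under 0.05 on at least 4 of 24 arrays).

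Arrays of the restricted fetuses restricted_9073 and restricted_2820 stood apart and are named before the results because several values rest on them. Each array was placed on a line on which the control abdominal mean is 0 and the control omental mean is 1, over the 507 probes that differed between depots in control fetuses. The abdominal array of restricted_9073 lay at 0.55 (0.45 to 0.56 over 20 processing alternatives), between the depots, while the other abdominal arrays of restricted fetuses lay at -0.07, 0.02 and 0.06. Its correlation with the omental array of the same fetus, across the 16933 probes, was 0.9947, against 0.9737 to 0.986 in the other fetuses. Restricted_2820 had an omental array at 0.72, below the 0.87 to 0.89 of the other restricted omental arrays, and lacked several identity differences described below. The control arrays set both the line and its probes, so their own positions are not a result. Whether these arrays reflect the fetus, the dissection, the culture, mixed tissue or a label error was not tested, so each name stands for the arrays so labelled.

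**Figure D1:**
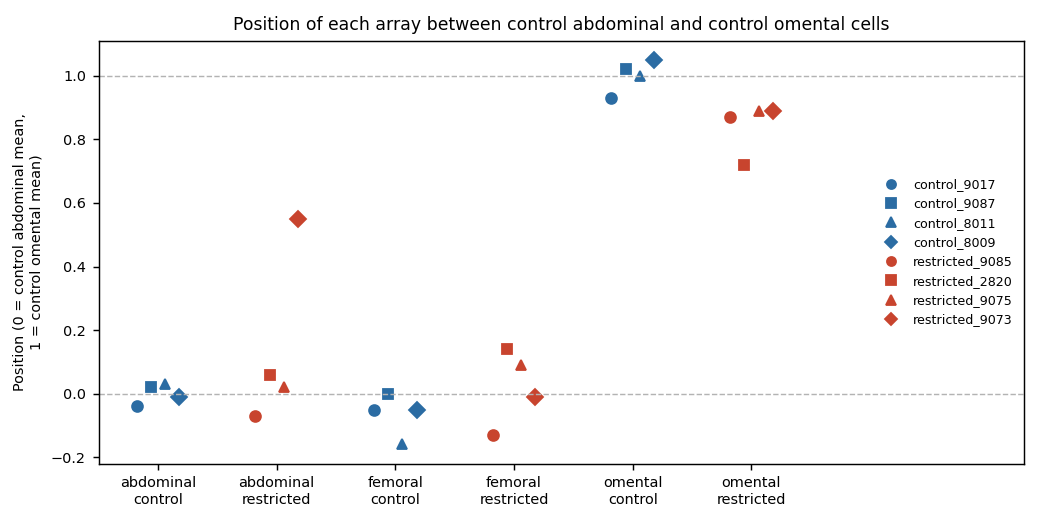
Position of each of the 24 arrays between control abdominal (0) and control omental (1) cells over 507 probes; each point is 1 array, coloured by maternal diet with 1 marker per fetus. The abdominal array of restricted_9073 lies at 0.55 and the other abdominal arrays lie between -0.07 and 0.06.

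No gene showed a diet by depot interaction that passed the test. Limma called 0 of 16933 probes (0%) at an adjusted p under 0.05, and the smallest adjusted p was 0.999, which therefore holds for every gene named below. At an unadjusted p under 0.05 there were 583 probes (3.44%), 285 with a positive and 298 with a negative interaction, where 847 would be expected by chance, and 9 had an unadjusted p under 0.001. The median interaction over all probes was 0 on the log2 scale. The median standard error was 0.149, which gave a median 95% confidence interval of ± 0.332 before adjustment for the number of probes. An interaction well inside that width was not detectable for a typical probe with 4 fetuses per diet. Adjustment over 16933 probes asked for more, and even the interaction of -1.97 of CALB2, described below, was not called. The count of 0 therefore does not exclude interactions larger than that width. Interactions larger than 1 in either direction were seen for 64 probes.

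Fetuses of the diets were separated at few probes. All 4 restricted differences lay above all 4 control differences at 188 probes (1.11%), and all lay below at 184 probes (1.09%). At 82 probes (0.484%) the depot difference had opposite directions in every fetus of the diets, 41 with omental cells higher after restriction and 41 with omental cells lower.

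The overall size of the depot difference did not differ by diet beyond the spread between fetuses, and that spread was uneven among restricted fetuses. The standard deviation of the depot difference across probes was 0.413, 0.393, 0.363 and 0.464 in control_9017, control_9087, control_8011 and control_8009. It was 0.498, 0.482, 0.386 and 0.224 in restricted_9085, restricted_2820, restricted_9075 and restricted_9073. Restricted fetuses thus held both the largest and the smallest value. The means were 0.408 ± 0.042 in control and 0.397 ± 0.126 (SD, n = 4) in restricted fetuses, a difference of -0.011 (exact two-sided permutation p 0.914, where 70 splits allow no p under 0.0286). The difference was 0.047 without restricted_9073 and 0.008 without control_8009. Depot differences above 1 on the log2 scale were found for 360 to 718 probes in control fetuses, for 850, 696 and 423 probes in restricted_9085, restricted_2820 and restricted_9075, and for 49 in restricted_9073.

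Tested against 0 within each diet, more probes separated the depots in control than in restricted fetuses. Limma called 507 probes in control fetuses (2.99%), 261 higher in omental and 246 higher in abdominal cells, and 102 probes in restricted fetuses (0.602%), 52 and 50. The difference between these counts is not a test of an interaction. At an unadjusted p under 0.05 the counts were 2846 and 2403. Called in both diets were 84 probes, which is 16.6% of the control and 82.4% of the restricted calls, and all 84 had the same direction. With trended robust variances limma called 0 probes in either diet (2672 and 2140 at an unadjusted p under 0.05), so the depot calls named below hold for the variances of the main setting. The counts also rested on single fetuses. The restricted count was 432 without restricted_9073, and 0, 11 and 2 without restricted_9085, restricted_2820 and restricted_9075. It was 36, 37 and 9 without control_9017, control_9087 and control_8011. The control count was 158, 203, 140 and 147 without control_9017, control_9087, control_8011 and control_8009.

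The probes called in control fetuses mostly kept their direction in restricted fetuses at a smaller size. Of the 507, 500 (98.6%) had a restricted mean of the same sign, and 379 had that sign in 4 of 4 restricted fetuses. The median difference was 0.905 in control fetuses, which chose these probes, and 0.569 in restricted fetuses, with 453 of 507 smaller. Selection alone lowers the value in the diet that did not choose. Without restricted_9073 the median was 0.677 and 387 were smaller. In the other direction, the 102 probes called in restricted fetuses had a median of 1.13 there and 1.26 in control fetuses, with 54 smaller in control, and 102 of 102 kept their sign. The mean difference over the 507 probes was 1.06 to 1.19 in the control fetuses and 1.02, 0.74, 0.88 and 0.38 in restricted_9085, restricted_2820, restricted_9075 and restricted_9073.

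**Figure D2:**
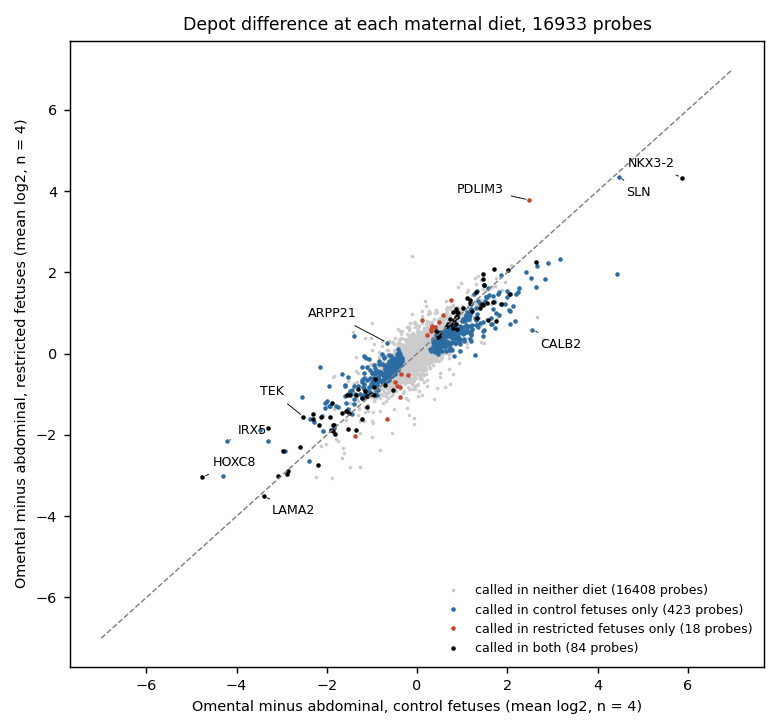
Mean omental minus abdominal difference in restricted fetuses against that in control fetuses (log2, n = 4 each) for 16933 probes; colour marks the probes called in control fetuses, in restricted fetuses or in both, and the dashed line marks equal differences. The 84 probes called in both diets lie on the same side of 0 in both, and 0 probes were called for the interaction.

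The 20 genes with the smallest interaction p are described next, with the reminder that none passed. Of these, 14 had a positive and 6 a negative interaction, and in 14 the mean depot difference was larger in control than in restricted fetuses. The restricted fetuses lay all above the controls in 13 and all below in 5, against 1.11% and 1.09% of all probes, and overlapped with them for HOXC8 and CSMD2. The rule that ranked them by p chose them for such separation, so these counts are a description. Many were dim: the probes of 11 of the 20 had a mean level under 5.5 over the 24 arrays, close to background.

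CALB2, which encodes the calcium-binding protein calretinin and marks mesothelium, had the largest interaction of the 20. Its omental levels were 9.11, 8.37, 9.24 and 8.02 in the control fetuses, in the order given above, and 7.12, 6.70, 9.49 and 7.10 in the restricted fetuses. Its abdominal levels were 6.92, 6.5, 6.38 and 4.70 in control and 7.19, 5.98, 8.04 and 6.87 in restricted fetuses. Omental cells were thus well above abdominal cells in every control fetus, whereas in restricted_9085 and restricted_9073 the depots were close together. The depot difference was 2.56 ± 0.65 in control and 0.59 ± 0.66 (SD, n = 4) in restricted fetuses. The interaction was -1.97 ± 0.37 (log2, SE; 95% interval -2.81 to -1.14; limma unadjusted p 0.000376), and -1.86 without restricted_2820 and restricted_9073. The restricted minus control difference was -1.08 in omental and 0.89 in abdominal cells, so both depots contributed. A second CALB2 probe had no such depot difference (-0.06 in control and -0.28 in restricted fetuses).

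Other mesothelial markers had smaller interactions than CALB2. Of 13 markers, 7 were detected on any of the 16 arrays, and MSLN, UPK1B, KRT8, KRT18, ITLN1 and BNC1 were detected on none. Over the 7 tested, CALB2 included, 0 were called and the median was -0.19. Of the 6 others 5 had a negative interaction, while 51.8% of all 10228 genes had one above 0. The summed level of the 7 was 1370 to 2050 in control and 1320 to 2120 in restricted omental arrays, and 1330 to 2390 in control and 1330 to 2690 in restricted abdominal arrays. KRT19, a keratin of simple epithelia, had depot differences of 1.43 and 0.69 and an interaction of -0.73, and WT1, a transcription factor of the mesothelium and visceral fat, one of -0.60, which turned to 0.25 without restricted_2820 and restricted_9073. The rest of the list had interactions of -0.19 (PDPN), -0.11 (UPK3B), -0.10 (LRRN4) and 0.32 (KRT7). The part of mesothelial cells in the CALB2 values was not tested.

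ARPP21, which encodes a phosphoprotein regulated by cyclic AMP in brain, had the smallest p of all named genes (0.000137). Its abdominal levels were 5.05, 5.06, 5.34 and 5.36 in control fetuses and 4.51, 4.55, 4.46 and 4.54 in restricted fetuses. Its omental levels were 4.67, 4.39, 4.63 and 4.49 in control and 4.58, 4.81, 4.59 and 5.16 in restricted fetuses. The probe was detected on 4 of 4 control abdominal arrays, on 1 restricted omental array, and on no control omental or restricted abdominal array. For a probe that no array of a group detected, only a bound on the fold is given, against the lowest detected signal of those arrays. Control abdominal cells were at least 1.34-fold above control omental cells and at least 1.34-fold above restricted abdominal cells. The fitted interaction was positive with both probes of the gene, and its size is not given because it rests on groups at background. The fitted interactions printed below for EGFL8, ILDR2, TIE1, IFI27, NKX3-2, ISL1, IRX2, TBX15, ZNF331, SNAP25 and CDH1 also use a group that no array detected. They are values of the fit against background and not measured sizes.

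ITGA6, the laminin-binding integrin alpha 6 subunit, followed a similar pattern at higher levels. Its abdominal levels were 7.25, 8.15, 8.28 and 7.97 in control and 6.40, 6.78, 7.58 and 6.61 in restricted fetuses, whereas omental levels were 6.29 to 7.38 in control and 6.38 to 7.43 in restricted fetuses. The depot difference was -1.18 ± 0.41 in control (limma adjusted p 0.00656) and -0.05 ± 0.33 in restricted fetuses, which gave an interaction of 1.13 ± 0.22. The diet difference lay in abdominal cells (-1.07) and was 0.06 in omental and 0.01 in femoral cells. LSP1, an actin-binding protein of leukocytes, had depot differences of -1.23 ± 0.32 and -0.34 ± 0.31, with a second probe in the same direction, and its diet difference was -0.99 in abdominal, -0.10 in omental and -1.12 in femoral cells.

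RCAN1, an inhibitor of the phosphatase calcineurin, showed the opposite order of the depots by diet. Its omental minus abdominal differences were 0.15, 0.71, 0.90 and 0.23 in control and -1.17, -0.47, -0.26 and -0.41 in restricted fetuses, so omental cells were higher in every control and lower in every restricted fetus. The interaction was -1.07 ± 0.23, and -1.0 ± 0.25 with its second probe. Abdominal levels were 6.04 to 6.76 in control and 7.31 to 8.06 in restricted fetuses and did not overlap, a diet difference of 1.20, while the omental diet difference was 0.13. ERRFI1, a feedback inhibitor of the epidermal growth factor receptor, had depot differences of 0.81 ± 0.46 and -0.06 ± 0.31. CSMD2, a large membrane protein, had 1.28 ± 0.39 and -0.03 ± 0.81, with restricted_9075 (0.92) and control_9087 (0.92) at the same value.

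TEK, the angiopoietin receptor of endothelial cells and some progenitors, was higher in abdominal cells of every fetus. Its depot differences were -2.30, -2.23, -2.51 and -3.03 in control and -1.62, -1.31, -2.18 and -1.11 in restricted fetuses. The groups lay side by side, with restricted_9075 closest to the controls. Limma called the depot difference in both diets (adjusted p 0.000519 and 0.0178), and the interaction was 0.97 ± 0.25 (0.52 with the second probe). The named probe was detected on 2 of 4 control omental arrays, at a mean level of 4.76, near background. Its diet difference was 0.65 in omental and -0.32 in abdominal cells, so the size of the interaction rests in part on that dim group. Of 10 endothelial markers, 9 were detected on any of the 16 arrays and CDH5 on none. Their summed level was 213 to 274 in control and 220 to 319 in restricted omental arrays, and 306 to 413 and 285 to 366 in abdominal arrays. TIE1, a related receptor, had an interaction of 0.30 ± 0.12 at levels of 4.48 to 4.88, near background. The median interaction of the 8 tested endothelial markers was 0.07, with 6 higher and 2 lower, and the part of endothelial cells was not tested.

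Besides HAND2 and HOXC8, described with the identity genes, the remaining 10 of the 20 had interactions of 0.44 to 0.70 in size. They comprised the long noncoding RNA LINC02860 (0.50 ± 0.11), the DNA damage response ubiquitin ligase RNF169 (0.44 ± 0.11), EGFL8 (0.50 ± 0.12), the endosomal trafficking protein MICALL1 (0.62 ± 0.15) and KBTBD8 (0.55 ± 0.14). They also comprised the potassium channel subunit KCNQ1 (-0.48 ± 0.12), CEND1 (0.57 ± 0.15), ANKS3 (0.70 ± 0.18), the chromatin remodelling subunit SMARCE1 (0.47 ± 0.13) and FAM53B (0.46 ± 0.12), of which the second probe pointed the other way (-0.35). EGFL8 was not detected on the restricted abdominal arrays, where restricted omental arrays were at least 1.14-fold higher. Of these 10, only SMARCE1 (5.91) and FAM53B (6.6) had a mean level above 5.5 over the 24 arrays. The others lay at 4.87 to 5.44, close to background, so their interactions are small values of dim probes.

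**Figure D3:**
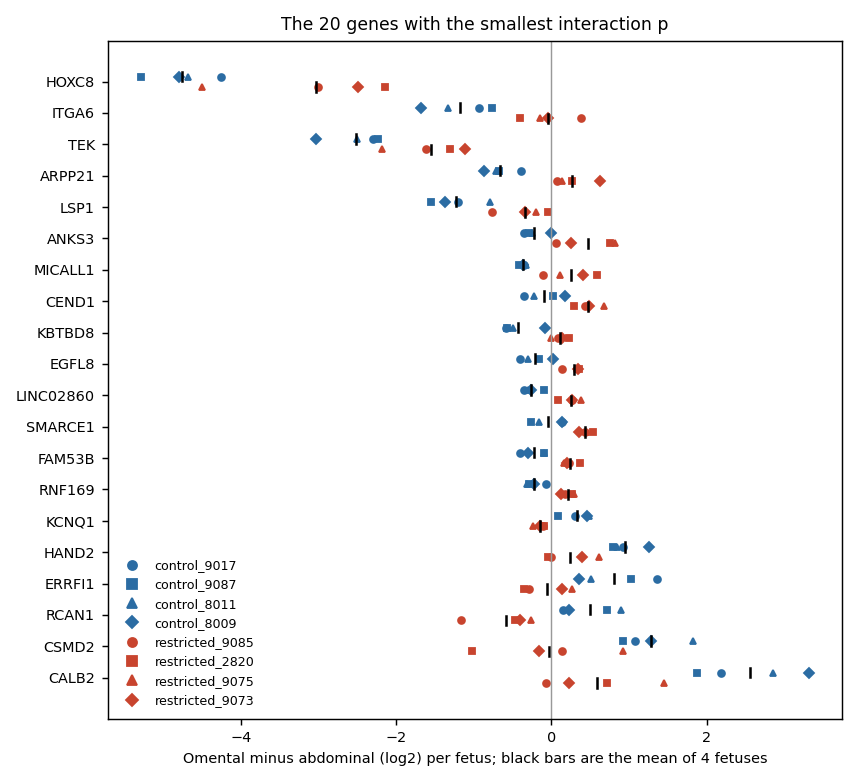
Omental minus abdominal difference of each fetus (log2) for the 20 genes with the smallest interaction p, control fetuses in blue above and restricted fetuses in red below each line, with black bars at the mean of 4 fetuses. The diets do not overlap for 18 genes and overlap for HOXC8 and CSMD2, and no gene passed adjustment.

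A further 10 genes were named for the largest interactions among those with opposite depot directions in every fetus of the diets. Besides ARPP21, RCAN1, LINC02860, KBTBD8, KCNQ1 and ANKS3, these were FST, ILDR2, SLC19A2 and SLTM. The probes of 8 of the 10 had a mean level under 5.5 over the 24 arrays, close to background. FST encodes follistatin, a secreted inhibitor of activins. Its depot differences were 0.50, 0.59, 0.59 and 0.13 in control and -0.64, -2.60, -0.16 and -0.03 in restricted fetuses. Its interaction was -1.31 ± 0.48, and -0.73 without restricted_2820, whose abdominal level of 13.53 stood above the 9.42 to 11.61 of the other abdominal arrays. SLC19A2, a thiamine transporter, had -0.51 ± 0.18 (-0.34 without restricted_2820), ILDR2 -0.55 ± 0.18 and the RNA-binding protein SLTM -0.48 ± 0.14, with 2 of 3 SLTM probes in the same direction. ILDR2 was not detected on restricted omental arrays, where abdominal arrays were at least 1.19-fold higher.

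The mean over identity genes of visceral fat and gut mesoderm separated the depots in all control fetuses and less evenly in restricted fetuses. Of 10 tested genes, 4 were called higher in control omental cells (NKX3-2, ISL1, WT1 and HAND2) and 1 in restricted omental cells (NKX3-2), and 0 were called for the interaction. Among all probes, 2.99% were called in control and 0.602% in restricted fetuses, in either direction, so calls were fewer after restriction beyond this list too. Not all members went this way. The control depot difference was near 0 for FOXF1 (0.02) and LHX2 (-0.02) and negative, though not called, for EFEMP1 (-0.54) and EBF2 (-0.84). The mean difference over the 10 was 1.30, 1.42, 1.31 and 1.21 in control fetuses and 1.43, 0.22, 1.26 and 0.31 in restricted_9085, restricted_2820, restricted_9075 and restricted_9073. Restricted_9085 and restricted_9075 thus lay within or close to the controls and the other restricted fetuses well below. The median interaction was -0.49, with 7 of 10 genes lower, beside 0.007 over all 10228 genes, and it was -0.23 without restricted_9073, -0.35 without restricted_2820 and -0.04 without both.

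NKX3-2, a homeobox repressor of gut and axial mesoderm, was in abdominal cells of restricted_9073 alone near its omental level. Its omental level was 9.69 to 10.79 in all 8 fetuses. Its abdominal level was 4.39, 4.40, 4.41 and 4.46 in control fetuses and 4.46, 4.88, 4.42 and 9.55 in restricted_9085, restricted_2820, restricted_9075 and restricted_9073. No other abdominal array came near that of restricted_9073. Control omental cells were at least 45.9-fold above control abdominal cells (limma adjusted p 0.0055), and the interaction of -1.55 ± 1.06 became -0.23 without restricted_9073. The LIM homeobox factor ISL1 was 6.42 on that array against 4.33 to 4.47 on the other abdominal arrays, and WT1 was 6.08 against 4.68 to 5.46. TBX15, a T-box factor of subcutaneous fat, was 5.93 there against 6.73 to 7.37. The abdominal array of restricted_9073 lay above all control abdominal arrays in 7 of the 10 visceral genes. The same share over all genes was not counted, so this count only describes the list. On the femoral array of restricted_9073, NKX3-2 was 4.65 and ISL1 4.47.

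HAND2, a basic helix-loop-helix factor of heart and gut mesenchyme, was the identity gene with the smallest interaction p among the visceral genes and the only one whose diets did not overlap. Its depot differences were 0.92, 0.79, 0.85 and 1.26 in control and 0.00, -0.05, 0.61 and 0.39 in restricted fetuses. Every control fetus lay above every restricted fetus, with restricted_9075 closest. Control omental cells were called higher (limma adjusted p 0.00592), and the interaction was -0.71 ± 0.17 (-0.65 without restricted_2820 and restricted_9073). Restricted fetuses stood lower in omental cells (-0.44) and higher in abdominal cells (0.27).

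Restricted_2820 differed in another set of genes. TCF21, a mesothelial and visceral fat factor, was 6.70 to 7.41 in control omental and 4.30 to 4.50 in control abdominal cells, whereas in restricted_2820 it was 4.53 in omental and 6.76 in abdominal cells. Omental cells were thus lower in this fetus and higher in the other 7. No control abdominal array detected TCF21, and control omental cells were at least 4.92-fold higher. IRX2, an Iroquois factor, was 7.20 to 9.25 on the other abdominal arrays and 4.49 on that of restricted_2820. IRX5 was 5.35 there against 8.06 to 9.99, and IRX3 was 9.14 against 11.19 to 12.72. HOXB7 was 4.98 against 6.82 to 7.84 and HOXB8 4.73 against 6.98 to 8.63. TMEM119, an osteoblast and microglial membrane protein, was 4.45 against 8.07 to 10.49. The Iroquois genes, HOXB7, HOXB8 and TMEM119 were thus low on the abdominal array of that fetus. Unlike the Iroquois genes, HOXB7 and HOXB8 were in the mean higher in control omental than abdominal cells (0.64 and 1.42, not called). For HOXB8 the low abdominal level went with a wider depot difference, as its interaction of 0.40 was -0.14 without restricted_2820. Of the omental genes, TCF21 (6.76) was at an omental level on that array, whereas NKX3-2 (4.88) and ISL1 (4.43) were not. TCF21, IRX3, HOXB7 and HOXB8 were chosen after their values were seen.

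**Figure D4:**
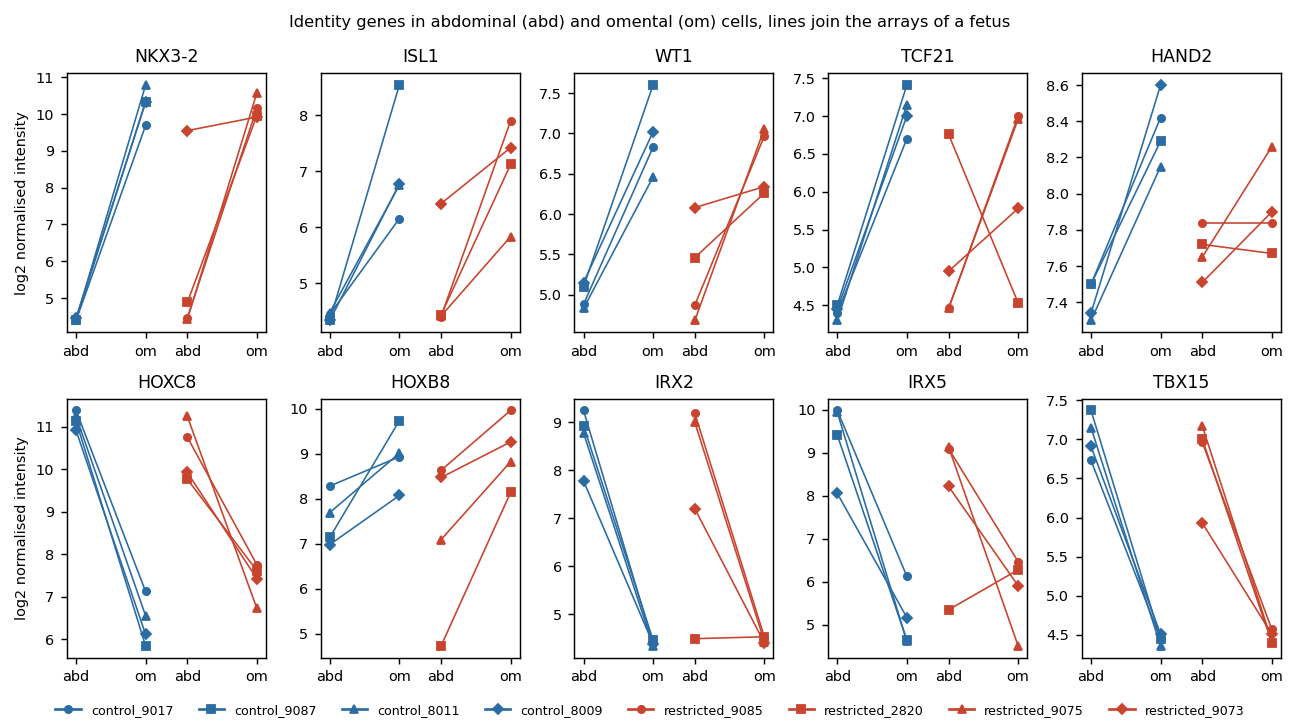
Log2 normalised intensity of 10 identity genes in abdominal (abd) and omental (om) cells, with a line joining the arrays of a fetus, control in blue and restricted in red. NKX3-2 is at 9.55 in abdominal cells of restricted_9073, and TCF21 is the other way round in restricted_2820 (6.76 in abdominal and 4.53 in omental cells).

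In their mean, genes of subcutaneous fat, body wall and limb were the mirror of the visceral genes. TBX3 (0.06), SHOX2 (0.08) and MSX1 (0.43) were not lower in control omental cells. Of 15 tested, 7 were called lower in control omental cells and 3 in restricted omental cells (TBX15, PRRX2 and TWIST1), and 0 were called for the interaction. Calls in either direction were 2.99% of all probes in control and 0.602% in restricted fetuses, so fewer restricted calls are not particular to this list. The mean difference was -1.21 to -1.27 in control fetuses and -1.22, -0.18, -1.39 and -0.57 in restricted_9085, restricted_2820, restricted_9075 and restricted_9073. The list's median interaction was 0.19, with 11 of 15 higher, and 0.02 without restricted_9073. TBX15 was at least 4.77-fold higher in control abdominal and at least 3.86-fold higher in restricted abdominal than omental cells, with an interaction of 0.31 ± 0.28. IRX2 was at least 14.9-fold higher in control and at least 6.29-fold higher in restricted abdominal cells, and its interaction of 1.30 ± 0.90 was 0.28 without restricted_2820. IRX5 had 2.06 ± 0.99, and 1.03 without that fetus.

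HOX genes mark position along the head to tail axis, and HOXC8 was the only one among the 20 genes with the smallest interaction p. It had omental levels of 7.13, 5.85, 6.56 and 6.12 in control and 7.76, 7.62, 6.73 and 7.43 in restricted fetuses. Its abdominal levels were 11.39, 11.14, 11.25 and 10.92 in control and 10.76, 9.77, 11.25 and 9.93 in restricted fetuses. Abdominal cells were higher in every fetus, and the gap was narrower in restricted fetuses except restricted_9075. The depot differences were -4.76 ± 0.42 and -3.04 ± 1.04 (limma adjusted p 0.000519 and 0.0142), with an interaction of 1.72 ± 0.45 that was 1.00 without restricted_2820 and restricted_9073. HOXC6 had -2.31 ± 0.16 and -1.50 ± 0.60, called in both diets, with an interaction of 0.82 ± 0.26 (0.33 without both fetuses). Other HOXC6 probes had interactions of 0.42 and 0.30. The latter probe had the opposite depot direction, with differences of 0.14 in control and 0.44 in restricted fetuses. HOXC9 had an interaction of 0.47. Over 11 central and posterior HOX genes 9 were higher, with a median interaction of 0.20 that was 0.09 without restricted_2820. The 9 do not share 1 kind of change. HOXB6, HOXB7 and HOXB8 were in the mean higher in omental cells, so their positive interactions (0.07, 0.64 and 0.40) were wider gaps. Over 11 anterior HOX genes the median was -0.10, with 4 higher and 7 lower. HOXA2 and HOXB5, anterior genes that were higher in omental cells, had interactions of -0.22 and 0.07.

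Genes of fat cell formation did not move together. The 19 tested genes of adipocyte differentiation had a median interaction of -0.02, with 9 higher and 10 lower and 0 called. PPARG, the nuclear receptor that drives fat cell formation, was nevertheless higher in omental cells by 0.70, 2.06, 1.98 and 1.90 in control and by 0.48, 1.20, 0.57 and 0.62 in restricted fetuses. Control_9017 lay among the restricted fetuses, and the other controls lay above them all. The depot difference was called in control fetuses (1.66 ± 0.64, limma adjusted p 0.0055) and not in restricted fetuses (0.72 ± 0.33, adjusted p 0.157), and the interaction was -0.94 ± 0.30, or -0.74 ± 0.21 with a second probe. Restricted fetuses had a PPARG diet difference of -0.48 in omental, 0.47 in abdominal and -0.89 in femoral cells. CD36, a fatty acid transporter, had depot differences of 2.27 and 1.61 and an interaction of -0.65, and FABP4, a fatty acid carrier, one of -0.38. CEBPA, a factor that acts with PPARG, had a depot difference of -1.79 ± 0.75 in control fetuses (limma adjusted p 0.0229). Its probe was not detected on restricted omental arrays, and restricted abdominal cells were at least 2.04-fold higher (adjusted p 0.118). Among 11 preadipocyte and anti-adipogenic genes the median was 0.15, with 7 higher, and SFRP1, a Wnt antagonist, had -1.04 while DKK1, another, had 0.59 ± 0.27. The 3 tested thermogenic genes had a median of -0.29, with COX7A1, a muscle and brown fat subunit of cytochrome oxidase, at -0.41 ± 0.19.

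Growth factor genes of the insulin-like axis had a median interaction of -0.04 over 18 genes, with 8 higher. IGFBP5, an abundant binding protein, had depot differences of -0.96, -0.55, -0.56 and -0.24 in control and -0.33, -0.18, 0.28 and 0.05 in restricted fetuses, which overlapped, and an interaction of 0.53 ± 0.18. Its diet difference with this probe lay in omental cells (0.62) more than in abdominal cells (0.09). A second IGFBP5 probe had depot differences of -0.92 in control and -0.60 in restricted fetuses and an interaction of 0.33 ± 0.39. IGF1 had an interaction of -0.54, and IGFBP3, which carries most circulating growth factor, 0.27 ± 0.41. IGF2, the fetal growth factor, varied between fetuses more than by diet, with depot differences of 1.55, 0.96, 0.76 and -2.45 in control and 1.46, -2.44, -0.90 and 0.26 in restricted fetuses, and an interaction of -0.61 ± 0.96. The 14 imprinted genes had a median of -0.04. CDKN1C, an imprinted inhibitor of the cell cycle, was higher in omental cells by 2.24 (adjusted p 0.0114) in control and 1.52 (adjusted p 0.0829) in restricted fetuses. MEG3 and ZNF331 had interactions of 0.15 ± 0.30 and -0.09 ± 0.15. The MEG3 diet difference was -0.74 in omental and -0.90 in abdominal cells. ZNF331 was not detected on any restricted array of the depots, and control cells were at least 1.33-fold higher in omental and at least 1.32-fold higher in abdominal cells.

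Extracellular matrix genes had a median interaction of 0.07 over 38 tested genes, with 0 called. At an unadjusted p under 0.05, 4 of them had a positive and 1 a negative interaction, where 3.44% of all probes reached that p. LOX, which crosslinks collagen and elastin, had depot differences of -0.73, -0.29, -0.70 and -0.80 in control and 0.23, 0.24, -0.34 and -0.23 in restricted fetuses. Abdominal cells were higher in every control fetus, and only the lowest restricted fetus reached the highest control. Its interaction was 0.60 ± 0.18. Collagen-binding POSTN (0.88), the laminin chain LAMA4 (0.45) and the fibrillar collagen COL5A2 (0.36) pointed the same way, and THBS1, an activator of latent TGF-beta, the other way (-0.41 ± 0.14). Of THBS1 the restricted fetuses lay below all controls. PLAU, the urokinase protease, had 0.35 ± 0.15 among 13 matrix proteases and inhibitors with a median of -0.09.

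Signalling lists were centred near 0. Over 22 Wnt pathway genes the median was 0.05, with ROR1, a receptor of noncanonical Wnt, at 0.58 ± 0.18 and the receptor FZD2 at 0.52 ± 0.22. The ROR1 depot differences were 0.20, -0.35, -0.22 and 0.32 in control and 0.50, 0.92, 0.48 and 0.38 in restricted fetuses and did not overlap. Over 19 TGF-beta and BMP genes the median was -0.02, with FST above and SMAD6, an inhibitory SMAD, at -0.60 ± 0.29. Over 14 genes of retinoic acid synthesis, binding and receptors the median was -0.04, with CRABP2, a carrier of retinoic acid, at -0.70 ± 0.35, and RARA, a receptor, at 0.30 ± 0.15.

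The interferon response list, of genes that cells switch on after sensing virus, had the largest median interaction of the 30 lists (0.79), and it rested on restricted_2820. Of 9 tested genes 8 were higher and 0 were called. The list's mean level was 5.53 to 5.69 in control and 5.95, 9.21, 6.08 and 5.47 in restricted omental cells, and 5.45 to 5.76 in control and 5.83, 7.4, 5.55 and 5.79 in restricted abdominal cells, in the order of fetuses given above. Restricted_2820 stood far apart, in both depots and at 8.41 in femoral cells. Restricted_9085 and restricted_9075 lay above the control omental arrays by much less. The mean depot difference was 1.81 in that fetus and -0.32 to 0.52 in the other restricted fetuses, and the median interaction was 0.18 without it. IFIT1, an inhibitor of viral RNA translation, was 10.03 in omental and 7.72 in abdominal cells of restricted_2820 against 4.72 to 6.24 on the other 14 arrays, with an interaction of 0.83 ± 0.44. IFI27 had 0.93 ± 0.44, and 0.43 without that fetus. In restricted_9085 the IFI27 level was 6.72 in omental and 6.67 in abdominal cells. Control levels were 4.31 to 4.61 in omental and 4.60 to 5.87 in abdominal cells.

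Glucocorticoid targets had a median interaction of -0.30, with 10 of 12 genes lower and 0 called, and the median was -0.12 without restricted_2820. The mean depot difference was -0.73, -0.66, 0.01 and -0.55 in control and -1.52, -2.11, -0.46 and -0.13 in restricted fetuses. Restricted_9085 and restricted_2820 lay below every control, and the other restricted fetuses lay among them. The metallothioneins, small metal-binding proteins, had interactions of -1.52 (MT1X), -1.29 ± 0.90 (MT1G), -1.17 (MT2A), -0.66 (MT1E) and -0.08 (MT1F). That of MT1G was -0.65 without restricted_2820 and -2.13 without restricted_9073. HSD11B1, which makes active cortisol inside cells, had abdominal levels of 4.97, 4.50, 4.39 and 4.76 in control and 6.93, 9.38, 4.61 and 4.46 in restricted fetuses, and its interaction was -1.53 ± 0.74, and -0.80 without restricted_2820. Its 3 probes pointed the same way. Glucocorticoid receptor transcript NR3C1 had -0.13, and FKBP5, a common target of that receptor, 0.07. Over 15 cytokines and NF-kB targets the median was 0.00. CCL20, a chemokine, was 10.38 on the abdominal array of restricted_2820 against 4.50 to 6.08 on the other 15 arrays, and IL6 had an interaction of 0.09 ± 0.68.

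The 10 genes with the largest depot differences with diet ignored were named as well. Besides NKX3-2, HOXC8, IRX2, IRX5 and TMEM119, these were SLN, LAMA2, ALDH1A1, STMN2 and PDLIM3. SLN encodes sarcolipin, an inhibitor of the calcium pump of muscle. Its depot differences were 4.0, 3.42, 4.25 and 6.26 in control and 5.93, 4.52, 7.22 and -0.24 in restricted fetuses, the last being restricted_9073, whose abdominal level of 11.33 was like the omental levels. Its interaction was -0.13 ± 1.36, and 1.41 without that fetus. PDLIM3, a scaffold of the contractile apparatus, had abdominal levels of 7.12, 8.26, 6.89 and 7.03 in control and 4.68, 4.99, 4.89 and 9.22 in restricted fetuses. Restricted_9073 thus lay above all controls and the other restricted fetuses below. Its interaction was 1.29 ± 0.89 (limma unadjusted p 0.18). It was 2.78 without restricted_2820 and restricted_9073, which were set apart by values of these same data, so the larger size is a description only. LAMA2, a laminin chain, STMN2, a neuronal regulator of microtubules, and ALDH1A1, which makes retinoic acid, had interactions of -0.12 ± 0.48, 0.06 ± 0.55 and -0.84 ± 0.64. The 19 contractile and smooth muscle genes had a median of -0.06, which ran from -0.16 to 0.17 as single fetuses were left out and was 0.17 without restricted_9073, with CNN1, smooth muscle calponin, at -0.75 ± 0.38 and ACTC1, cardiac actin, at 1.95 ± 0.91.

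The remaining lists had medians between -0.08 and 0.32 with 0 members called. Leaving out single fetuses turned the sign of the median in 18 of all 30 lists, whose medians lay between -0.29 and 0.12. Cell cycle genes had 0.11 over 23 genes, but -0.11 without restricted_9073, -0.11 without restricted_2820 and -0.31 without control_8009. Hypoxia and glycolysis genes had 0.06 over 22, oxidative phosphorylation genes -0.08 over 21, cholesterol synthesis genes -0.03 over 10, and amino acid and unfolded protein stress genes 0.10 over 14. Of the markers of other cells, pericyte markers had 0.32 over 6 genes, skeletal muscle markers 0.12 over 9, epithelial and keratinocyte markers 0.08 over 7, Schwann and neural markers 0.03 over 6, and macrophage and blood markers -0.08 over 3. The pericyte median was 0.00 without restricted_2820 and 0.09 without restricted_9073. CD248, a pericyte and progenitor surface protein, had depot differences of -2.13 ± 0.24 in control and -1.56 ± 0.98 in restricted fetuses, called in both diets (limma adjusted p 0.00656 and 0.0483), with restricted_9073 at -0.15. Over all 30 lists, 403 of 606 genes were tested, and 0 of their members were called for the interaction.

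**Figure D5:**
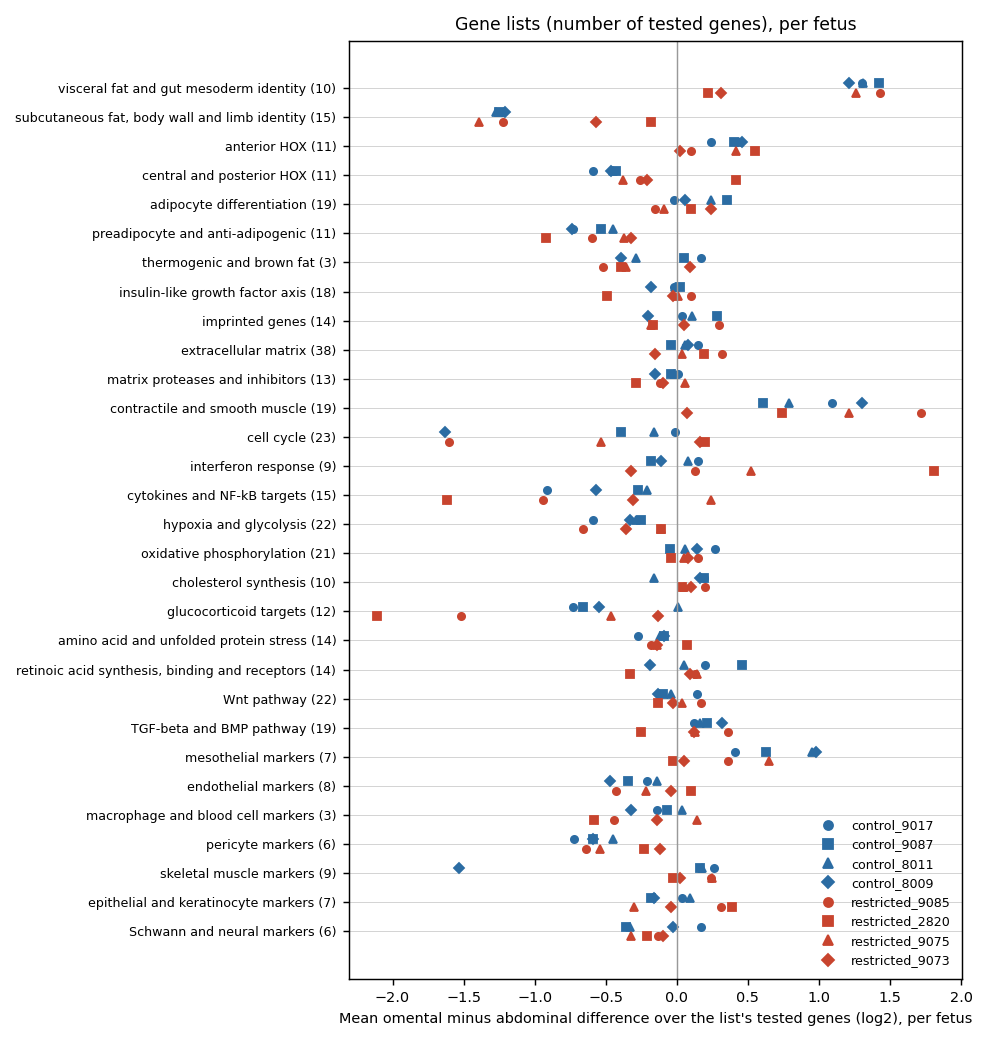
Mean omental minus abdominal difference (log2) over the tested genes of each of 30 lists, 1 point per fetus, control in blue and restricted in red, with the number of tested genes in brackets. In the visceral and subcutaneous identity lists restricted_2820 and restricted_9073 lie nearest to 0, and in the interferon list restricted_2820 lies at 1.81.

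The diet difference behind an interaction lay in either depot. It was larger in size in abdominal than in omental cells for 53.3% of all probes, for 56.5% of the 372 probes whose diets did not overlap and for 12 of the 20 genes with the smallest p. ITGA6, RCAN1, LSP1 and CSMD2 differed mainly in abdominal cells, and IGFBP5 and ROR1 mainly in omental cells. CALB2, HAND2, PPARG and KCNQ1 (-0.34 in omental and 0.14 in abdominal cells) differed in opposite directions in the depots.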

How the data were processed

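Intensities after background subtraction and detection p-values, 1 of each per probe on an array, were deposited by the authors, per the file headers. The authors also deposited a series matrix of intensities that, from the values, were quantile-normalised on a linear scale. The software behind these values is not given in the sources used here. Columns were assigned by their depot letter and fetus number, with T read as the femoral depot. The platform annotation gave 28098 of 48803 probes 1 gene symbol, 13 several and 20692 none, and no gene was named from the last kinds.

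All 24 arrays were normalised together by neqc with an offset of 16 (limma 3.58.1, statmod 1.5.0, R 4.3.3), which gives log2 values. Limma (lmFit, eBayes, two-sided) was fitted to the 8 omental minus abdominal differences, with Benjamini-Hochberg adjustment over 16933 probes and calls at an adjusted p under 0.05. Pairing comes from the fetus, whose arrays deviated from their group means together (correlation 0.295 to 0.495 in all 8). Tables and plots used Python 3.11.15, numpy 2.4.6, pandas 2.3.3 and matplotlib 3.10.9.

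Genes were named by rules: the 20 smallest interaction p, the 10 largest interactions with opposite depot directions, 2 examples of each of 30 lists, chosen genes and the 10 largest depot differences. A list gene was read by its probe with the highest mean. The comparison, genes and lists were chosen with earlier results of these data known. The number of arrays limits precision, and the alternatives tried are given at the end.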

Additional observations from a re-analysis of the deposited data

Results flagged for a closer look

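In 208 groups of 4 values checked, 9 had 1 value whose gap to its nearest neighbour took up more of the group's range than expected at the 95% level, and chance alone does so in about 1 group in 20. The omental array of restricted_2820 lay at 0.72 between control abdominal (0) and control omental (1) cells, against 0.87 to 0.89 in the other restricted fetuses. PPARG, the regulator of fat cell formation, had a depot difference of 0.70 in control_9017 against 1.90 to 2.06 in the other controls. The embryonic myosin MYH3 had -4.79 and the epithelial adhesion protein CDH1 -3.05 in control_8009, against 0.04 to 0.49 and -0.07 to 0.18 in the other controls. In that fetus the abdominal level was 10.06 for MYH3 and 10.15 for ACTC1, above the 4.31 to 4.45 and 4.87 to 8.08 of the other abdominal arrays.

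The synaptic protein SNAP25 had 3.12 in control_9017 (others 2.41 to 2.52). The lipoprotein receptor VLDLR had -0.90 (others -0.43 to -0.39) and the myogenic factor MYF6 -0.20 (others 0.20 to 0.22) in control_8011. The adhesion molecule ICAM1 had -0.44 in restricted_2820 (others -0.04 to -0.02), and EGFL8 had 0.14 in restricted_9085 (others 0.33 to 0.36). The causes were not tested.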

How the results depend on the processing

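With 4 fetuses per diet and dim probes near background, small interactions were not detectable, and larger ones could fail the adjusted threshold. The interaction count of 0 kept its value under every alternative but an offset of 50, where 1 probe without a gene symbol was called (interaction 0.64, limma adjusted p 0.0499), and except for an unadjusted p under 0.05 (583) or 0.001 (9). No replicate block, the fit that ignores the pairing by fetus, gave 0 interaction calls, 161 control and 40 restricted depot calls. The control depot count of 507 was 142 without a filter, 156 in female fetuses alone, 840 with all 24 arrays and a fixed replicate block, 0 with trended robust variances, 267 without the abdominal array of restricted_9073 and no block, 958 at an adjusted p under 0.1, 2846 at an unadjusted p under 0.05, and 140 to 643 without single fetuses. The restricted count of 102 was 28 with an offset of 50, 1 without a filter, 44 with probes detected on all 24 arrays, 169 with sex, 0 in females alone, 392 with the fixed replicate block, 0 with trended robust variances, 46 with array weights, 304 without restricted_2820 and restricted_9073, 309 without the abdominal array of restricted_9073 and no block, 55 with gene means, 385 at an adjusted p under 0.1, 2403 and 213 at an unadjusted p under 0.05 and 0.001, and 0 to 432 without single fetuses. The difference in spread ran from -0.044 to 0.047 without single fetuses and was 0.034 without restricted_2820 and restricted_9073. The causes were not tested.

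Of 2565 recomputed interactions of 101 named genes, 2522 kept their direction and their side of the threshold, and 43 changed sign without any passing. Without restricted_2820 and restricted_9073 these were DIO2 (-0.03), BUB1B (-0.06), DHCR7 (-0.02), WT1 (0.25), SNAP25 (0.24), NKX3-2 (0.06), IGF2 (0.07), MEG3 (-0.01), TNFRSF11B (0.16), SLN (2.09), IRX2 (-0.33), STMN2 (-0.70), TMEM119 (-0.09) and IRX3 (-0.19). Without the abdominal array of restricted_9073 and no block they were SNAP25 (0.14), IL6 (-0.28), SLN (1.36) and STMN2 (-0.19). Others were IL6 in females alone (-0.19), SLN from the series matrix (0.01) and without a background model (0.01), LAMA2 with array weights (0.03), and STMN2 with an offset of 50 (-0.06) and with gene means (-0.01). Without single fetuses the ranges were -0.65 to 0.05 for CD14, -0.13 to 0.95 for CDH1, -0.14 to 0.79 for HOXB8, -1.50 to 0.07 for IGF2, -0.15 to 0.53 for IGFBP3, -0.49 to 0.41 for IL6, -0.96 to 0.00 for ISL1, -0.63 to 0.25 for LAMA2, -0.12 to 0.33 for MEG3, -1.08 to 1.41 for SLN, -0.73 to 0.08 for SNAP25 and -0.35 to 0.50 for STMN2. Of the recomputed list medians, 741 moved by less than the spread between fetuses and 31 by more.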
